A study of Mus musculus with 6 samples.

Results

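The phagocyte NADPH oxidase was followed through 7 genes, named as its subunits and partners: Cybb, Cyba, Ncf1, Ncf4, Rac1, Rac2 and Hvcn1. This list was chosen with earlier results of these data known. All 7 were found among the 49315 genes of the table, and all 7 passed the filter on low counts together with 16956 genes in all. Messenger RNA was measured by poly(A)-selected RNA sequencing in 6 mouse bone marrow libraries. The 3 WT libraries (replicates 1, 3 and 4) came from mice with the floxed and undeleted locus, miR-181a2b2 flox/flox, and the 3 KO libraries (replicates 2, 3 and 4) from miR-181a2b2-/- mice. Every animal in these groups had been fed the HFSC diet and had undergone hindlimb ischemia, in which surgery cuts the blood supply of the hind leg. The labels give no age, sex, Cre line or time after surgery, and they leave unsaid whether each library is a different animal, so the p-values speak only of the spread among these samples.

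The phagocyte NADPH oxidase carries electrons from NADPH across the membrane to oxygen and so makes superoxide, the start of the oxidative burst with which neutrophils, monocytes and macrophages kill ingested microbes. Its membrane core is a heterodimer of gp91phox, encoded by Cybb, and p22phox, encoded by Cyba. In a resting cell the organiser p47phox (Ncf1) and p40phox (Ncf4) wait in the cytosol. On stimulation they move to the membrane with the small GTPase Rac, of which Rac2 is the form of blood cells and Rac1 the form found in most cells. Hvcn1 encodes the voltage-gated proton channel HV1, which carries out protons to balance the charge moved by the electrons.

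The deleted locus encodes miR-181a and miR-181b, microRNAs whose seed, bases 2 to 8 counted from the 5′ end, pairs with sites in the 3′ UTRs of messenger RNAs and lowers their level or translation. Their mature forms are printed first because the seed defines which oxidase transcripts hold a site. Both are on the plus strand of GRCm38.p6 in RefSeq, at chr2:38852741-38852763 for miR-181a-5p and chr2:38853845-38853868 for miR-181b-5p, with the seed in capitals.
miR-181a-5p: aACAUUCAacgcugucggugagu
miR-181b-5p: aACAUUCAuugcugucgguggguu
The seed is the same in both, and the miR-181a1b1 locus, which these mice were not labelled as lacking, also makes miR-181a and miR-181b. Annotated 3′ UTRs of GENCODE M21 were searched for its reverse complement, and 2 of the 7 oxidase genes held a match of at least 6 bases, compared with 32.69% of all 20892 genes with an annotated 3′ UTR. They are shown with the matching bases in capitals, written with T.
Cybb: atatcataatgGAATGTAtggccagagac
Hvcn1: tttctctactaGAATGTccccagcttct
The Cybb match, at bases 766 to 772 of 2965, pairs with bases 2 to 7 and is followed by A. The Hvcn1 match, at bases 322 to 327 of 1625, pairs with bases 2 to 7 only, the weakest class. No match was found in the 3′ UTRs of Cyba, Ncf1, Ncf4, Rac1 or Rac2, the longest of which was that of Rac1 with 3341 bases. The longer classes, a match to bases 2 to 8 or one to bases 2 to 7 followed by A, were found in 1 of the 7 (Cybb) and in 21.01% of all these genes. A match is a string of letters and not a measured site.

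Transcripts of the oxidase were somewhat more abundant in KO than in WT marrow for every member, by point estimates from 1.10-fold to 1.5-fold. Only Cyba rose past the threshold, an edgeR quasi-likelihood p under 0.05 after Benjamini-Hochberg adjustment over all genes tested. Of the 7 members 1 rose and 0 fell, against a background of 0.938% of all genes called higher and 1.52% called lower. At an unadjusted p under 0.05, 6 of 7 were higher and 0 lower, where 11.7% of all genes were higher and 12.2% lower. In 6 of 7 members each KO library lay above each WT library, and in 0 of 7 below, compared with 14.4% and 14.7% of all genes. With library totals as the only scaling, 5 of 7 lay above and 0 below, compared with 10.1% and 19.8% of all genes, and Ncf1 then overlapped. The median log2 fold change (KO minus WT) of the 7 was 0.33, against -0.01 over all genes, of which 48.9% had a positive value. DESeq2 called 5 of the 7 as higher and 0 as lower. It called 6.0% and 5.35% of the 13894 genes to which it gave an adjusted p. Limma called 2 and 0 of the 7, with 2.07% and 2.57% of all genes called.

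**Figure D1:**
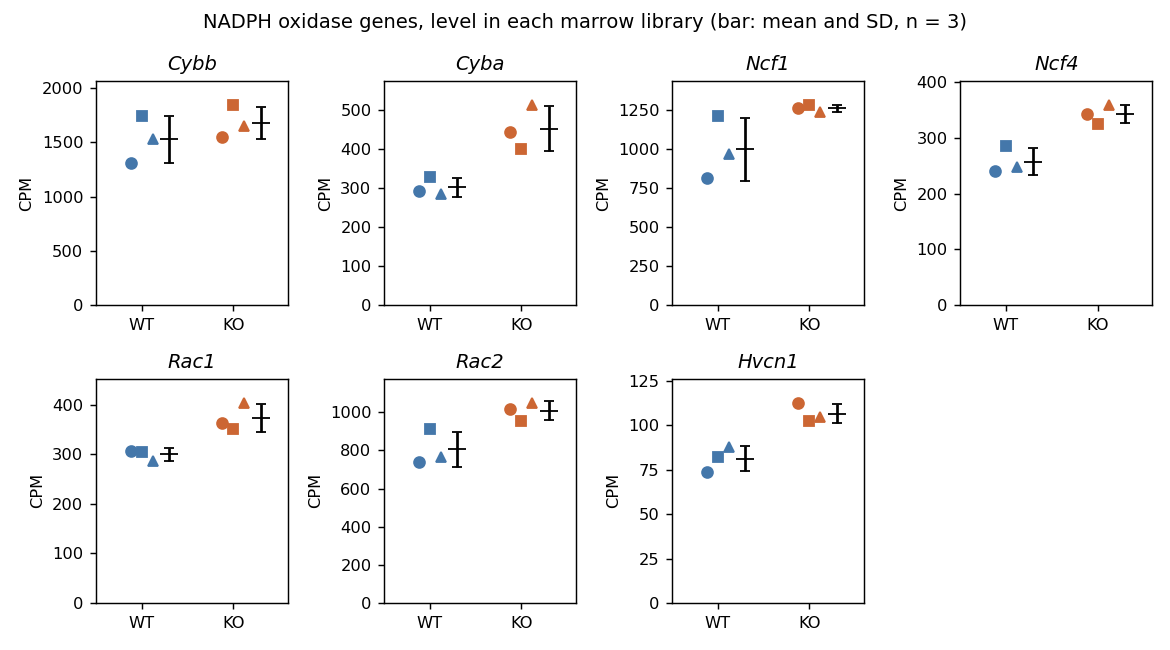
Level of each oxidase gene in CPM (counts scaled by library total and TMM factor, vertical axis from 0) in each library, with WT replicates 1, 3 and 4 and KO replicates 2, 3 and 4 drawn as circle, square and triangle, and the mean and SD (n = 3) as a bar. The groups overlap for Cybb and do not overlap for the other 6 genes drawn, of which Ncf1 overlaps if scaled by library totals alone.

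Total counts lay between 33861440 and 40359093 per library. The members had from 2553 counts (Hvcn1 in WT replicate 1) to 71088 (Cybb in WT replicate 3), for which counting error alone is 1.98% and 0.375% of the value, below the spread between libraries. Over all genes 417 were called, a number that ran from 32 to 920 when single libraries were left out. The share of higher genes among the calls was 38.1%, but 17.8% with library totals as the only scaling, 48.3% once trends on exon length and GC content had been taken out, and 52.9% in DESeq2. Adipocyte markers were checked because the extraction text names white adipose tissue. The 8 listed summed to between 99.9 and 126 CPM in WT and between 159 and 181 CPM in KO. Pnpla2, a triglyceride lipase, Lpl, lipoprotein lipase, and Fabp4, a fatty acid carrier, made up most of this sum. The 5 tested had a median log2 fold change of 0.59, and edgeR called 0. At an unadjusted p under 0.05, 3 were higher and 0 lower (11.7% and 12.2% of all genes). DESeq2 called 1 higher and 0 lower (6.0% and 5.35% of its genes with an adjusted p), and limma 1 and 0 (2.07% and 2.57% of all genes). Adipoq, the hormone adiponectin, lay between 2.70 and 6.62 CPM, while Plin1, Cidec and Lep each stayed under 0.3 CPM. The part of adipocyte RNA in the oxidase values was not tested. The first principal component (40.3% of the variance) separated the groups. WT replicates 1, 3 and 4 lay at -23.1, -27.1 and -28.4, and KO replicates 2 and 3 at 7.01 and 10.5. KO replicate 4 stood apart from the other libraries at 61.1.

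The membrane core came first. Cyba (ENSMUSG00000006519, GRCm38 chromosome 8, 122424776 to 122432930) encodes p22phox, the subunit that stabilises gp91phox and docks p47phox. Its level in CPM, counts scaled by library total and TMM factor, was 293, 328 and 283 in WT replicates 1, 3 and 4 and 444, 399 and 512 in KO replicates 2, 3 and 4. The lowest KO library stood clear of the highest WT library. Cyba rose 1.5-fold, with a log2 fold change of 0.58 ± 0.12 (SE) and a 95% interval from 0.32 to 0.85 (edgeR adjusted p = 0.0433). It ranked 239 among all genes by p. The call was close to the threshold. It was kept without KO replicate 3 (adjusted p = 0.0253) and lost when any other single library was left out, with adjusted p values of 0.120, 0.0586 and 0.155 without WT replicates 1, 3 and 4 and of 0.0508 and 0.156 without KO replicates 2 and 4. Its log2 fold change in those fits lay between 0.49 and 0.68. The call also ended with Xist status (above 1 CPM in 2 of 3 WT and 1 of 3 KO libraries) as a covariate, at an adjusted p of 0.0738.

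Cybb (ENSMUSG00000015340, chromosome X, 9435252 to 9487771) encodes gp91phox, the subunit that carries the haems and the NADPH site. Its level was 1309, 1745 and 1531 CPM in the WT libraries and 1552, 1843 and 1647 CPM in the KO libraries. The ranges overlapped, and WT replicate 3 was above 2 of the 3 KO libraries. Its log2 fold change was 0.14 ± 0.13 (SE), inside the spread of the libraries (edgeR adjusted p = 0.559). The interval of -0.16 to 0.43 spans 0.897 to 1.35 times the WT level. Because Cybb is X-linked, the Xist RNA, made from the inactive X of female cells, was set beside it. Xist was above 1 CPM in WT replicates 3 and 4 and KO replicate 2, where Cybb was at 1745, 1531 and 1552 CPM, and below 1 CPM in WT replicate 1 and KO replicates 3 and 4, where Cybb was at 1309, 1843 and 1647 CPM. With Xist status as a covariate the log2 fold change of Cybb was 0.17.

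The partners of the heterodimer were then compared within each library. The log2 ratio of Cybb to Cyba per exon length was -0.32, -0.07 and -0.05 in the WT libraries and -0.68, -0.28 and -0.80 in the KO libraries. In WT marrow there were thus 0.903 Cybb transcripts per Cyba transcript on this scale, and in KO marrow 0.667. WT replicate 1 lay below KO replicate 3, so the groups overlapped. The difference was -0.44 on the log2 scale (exact two-sided permutation p = 0.20, adjusted p = 0.60 over 3 ratios), where the smallest p that 3 against 3 libraries allow is 0.1. This test could not reach the threshold and does not tell whether Cyba and Cybb responded differently. Cyba had the shortest annotated exons of the 7 (1039 bases) and Cybb the longest (5808 bases). Over all genes tested the median log2 fold change was 0.14 for exon lengths from 1000 to 2000 bases and -0.02 from 4000 to 6000 bases. With the length and GC trend taken out of each library, Cyba had 0.53 (adjusted p = 0.0506) and Cybb 0.21.

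Among the cytosolic phox subunits, Ncf4 (ENSMUSG00000071715, chromosome 15, 78244801 to 78262580) encodes p40phox, which binds a phosphoinositide of the phagosome membrane. It lay at 240, 285 and 248 CPM in WT and at 343, 326 and 359 CPM in KO. The groups did not overlap, and the log2 fold change of 0.41 ± 0.10 (SE) missed the threshold (edgeR adjusted p = 0.0628, interval 0.19 to 0.64). DESeq2 and limma placed it past the threshold (adjusted p = 0.00488 and 0.0403).

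Ncf1 (ENSMUSG00000015950, chromosome 5, 134220053 to 134229625) encodes p47phox, the organiser whose phosphorylation starts assembly. Its WT libraries spread widely, at 816, 1218 and 972 CPM, while the KO libraries lay close together at 1267, 1285 and 1237 CPM. WT replicate 3 was just under the lowest KO library, and with library totals as the only scaling it was above KO replicate 4 (1239 against 1172 CPM). The log2 fold change was 0.33 ± 0.14 (SE, edgeR adjusted p = 0.194), and it was 0.21 without WT replicate 1 and 0.50 without WT replicate 3. A stretch of 408 exon bases of Ncf1 overlaps Gtf2ird2 on the opposite strand, and Gtf2ird2 had a log2 fold change of 0.15. The ratio of Ncf1 to Ncf4 per exon length differed little between groups, at 1.09 ± 0.17 on the log2 scale in WT and 1.02 ± 0.10 in KO (SD, n = 3 each, exact permutation p = 0.80).

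**Figure D2:**
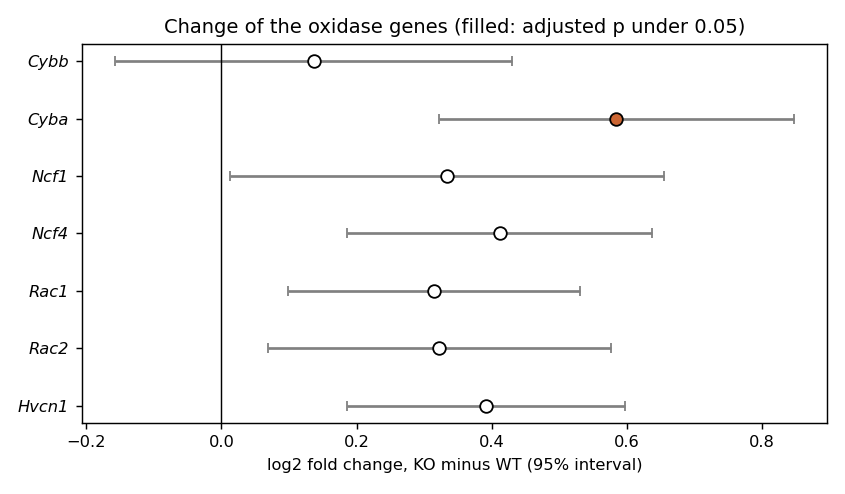
Log2 fold change (KO minus WT) of the 7 oxidase genes with the 95% interval of the edgeR fit, filled where the adjusted p is under 0.05. Only Cyba is filled, and only the interval of Cybb includes 0.

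The GTPases came next. Rac2 (ENSMUSG00000033220, chromosome 15, 78559167 to 78572783), the Rac of blood cells, lay at 740, 912 and 766 CPM in WT and at 1019, 954 and 1050.1 CPM in KO. Rac1 (ENSMUSG00000001847, chromosome 5, 143503634 to 143528036) lay at 308, 306 and 286 CPM in WT and at 364, 351 and 404 CPM in KO. Neither gene showed overlap between the groups, and their differences were alike in size. The log2 fold change was 0.32 ± 0.11 (SE) for Rac2 (edgeR adjusted p = 0.131) and 0.32 ± 0.10 (SE) for Rac1 (edgeR adjusted p = 0.101). Per exon length Rac2 outnumbered Rac1 by 3.88 to 1 in WT and 3.92 to 1 in KO. The log2 ratio differed by 0.01 between the groups (exact permutation p = 0.90), less than the spread of 0.16 (SD) between WT libraries. Rac1, and so the Rac2 to Rac1 ratio, is uncertain, because 2309 exon bases of Rac1 overlap Daglb on the opposite strand. No source used here gives the strand setting of the counting, so reads of the pair cannot be told apart. Daglb itself averaged 36.4 CPM in the WT libraries and 39.0 CPM in the KO libraries.

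Hvcn1 (ENSMUSG00000064267, chromosome 5, 122206804 to 122242297), the proton channel, was the least abundant member, at 73.8, 82.2 and 87.9 CPM in WT and 113, 103 and 105 CPM in KO. The groups did not overlap. Its log2 fold change of 0.39 ± 0.09 (SE) was just outside the threshold (edgeR adjusted p = 0.0565, interval 0.19 to 0.60). It passed in DESeq2 (adjusted p = 0.00777), without the filter on low counts (0.0139), with the Xist covariate (adjusted p = 0.0489), with the length and GC trend removed (0.0495) and without KO replicate 3 (0.0493), so that it and Cyba lay on either side of the threshold depending on the setting. Hvcn1 is also known from B cells. All 10 B lineage markers had lower point estimates in KO marrow, with a median log2 fold change of -0.71. Their summed level was 296 to 463 CPM in WT and 125 to 379 CPM in KO. In edgeR 0 of them passed. At an unadjusted p under 0.05, 0 were higher and 2 lower (11.7% and 12.2% of all genes). DESeq2 called 2 lower (5.35% of its genes with an adjusted p), and limma 0 in either direction (2.07% and 2.57% of all genes). Hvcn1 shares 1574 exon bases with Tctn1 on the opposite strand, whose log2 fold change was -0.47 (adjusted p = 0.0876), and its value is uncertain for the same reason as that of Rac1.

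Levels between genes were compared per kilobase of annotated exon. In WT marrow Cyba stood at 290 ± 22.4, Ncf1 at 274 ± 55.2, Cybb at 263 ± 37.5 and Rac2 at 259.7 ± 29.9 CPM per kilobase (SD, n = 3 each). On this scale these 4 did not differ beyond their spread. Ncf4 followed at 128 ± 11.8, Rac1 at 66.7 ± 2.71 and Hvcn1 at 22.8 ± 1.98, each clear of its neighbours on this scale. The places of Rac1 and Hvcn1 are uncertain. Of their exon bases, 2309 of 4496 in Rac1 and 1574 of 3563 in Hvcn1 overlap Daglb and Tctn1, and how reads there were counted is not known. In KO marrow Cyba stood at 435 ± 54.7, above Ncf1 at 345 ± 6.51, Rac2 at 325 ± 15.7 and Cybb at 289 ± 25.5. The lowest KO value of Cyba, 384, exceeded the highest of Ncf1, 351, while Ncf1 overlapped Rac2 and Rac2 overlapped Cybb. Ncf4 at 170 ± 8.25, Rac1 at 83.0 ± 6.19 and Hvcn1 at 29.9 ± 1.52 kept their places on this scale, with the same limit for Rac1 and Hvcn1. Cyba ranked 93 and Hvcn1 1983 among 16911 genes with a length. Per kilobase of the longest protein-coding transcript the WT order of the first 4 was the same. Cyba stood at 405 ± 31.3, Ncf1 at 348 ± 70.2, Cybb at 322 ± 45.9 and Rac2 at 265 ± 30.5 CPM per kilobase (SD, n = 3 each). Here Cyba was above Cybb and Rac2 by more than their SDs, so the likeness of the 4 depended on the length used. In KO Cybb at 354 came before Rac2 at 332.

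Other catalytic genes of the family, Nox1, Nox3, Nox4, Duox1 and Duox2, were sparse in this marrow. The table held 13 further oxidase genes and assembly factors that were listed. Of these 6 were tested, 1 rose and 0 fell, where 0.938% of all genes rose and 1.52% fell. Nox3 had 0 counts in all libraries, and Nox4, the constitutively active oxidase of kidney and vessel wall, stayed below 0.05 CPM. The gene that rose was Cybc1, which encodes the endoplasmic reticulum chaperone EROS needed for stable gp91phox and p22phox. It lay at 94.3, 99.7 and 98.3 CPM in WT and at 125, 120.4 and 134 CPM in KO, and all KO libraries were above all WT libraries. Its log2 fold change was 0.38 ± 0.08 (SE, edgeR adjusted p = 0.0491), a call that ended when WT replicate 1, 3 or 4 or KO replicate 2 or 4 was left out (adjusted p between 0.0629 and 0.190), and also with DESeq2 size factors (0.0502) or library totals (0.0694). Nrros, a chaperone-like protein that promotes loss of gp91phox, averaged 148 ± 5.69 CPM in WT libraries against 164 ± 10.5 CPM in KO libraries (SD, n = 3 each). Its groups overlapped, and its log2 fold change of 0.14 did not pass (edgeR adjusted p = 0.345).

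Genes that control assembly and activation of the oxidase, such as Vav and Dock exchange factors, protein kinases C and inhibitors of small GTPases, did not pass the edgeR threshold. Of 30 tested, 0 passed, where 0.938% of all genes rose and 1.52% fell. At an unadjusted p under 0.05, 6 were higher and 0 lower (11.7% and 12.2% of all genes). DESeq2 called 4 higher and 0 lower (6.0% and 5.35% of its genes with an adjusted p), and limma 1 and 0 (2.07% and 2.57% of all genes). The median log2 fold change was 0.10. The 3 with the smallest p were Arhgdib, a GDP dissociation inhibitor that keeps Rac in the cytosol, with 0.42 (adjusted p = 0.0738), Pak1, a kinase activated by Rac, with 0.29 (0.0757) and Cotl1, an actin-binding protein, with 0.39 (0.0904). Arhgdib lay at 1220, 1471 and 1306 CPM in WT and 1780, 1706 and 1867 CPM in KO, without overlap.

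Enzymes that supply NADPH, the electron donor, showed positive point estimates in 11 of 12 genes, with a median of 0.25. In edgeR 0 passed, where 0.938% of all genes rose and 1.52% fell. At an unadjusted p under 0.05, 5 were higher and 0 lower (11.7% and 12.2% of all genes). DESeq2 called 4 higher and 0 lower (6.0% and 5.35% of its genes with an adjusted p), and limma 0 in either direction (2.07% and 2.57% of all genes). The 3 with the smallest p were Idh1, the cytosolic isocitrate dehydrogenase, with 0.35 (adjusted p = 0.0832), Tkt, transketolase, with 0.32 (0.107), and Taldo1, transaldolase, with 0.30 (0.113). In 5 of the 12, these 3 among them, each KO library lay above each WT library. In 0 each lay below (14.4% and 14.7% of all genes).

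The antioxidant list held enzymes that remove superoxide and peroxide, and also other genes such as Gclc, Hmox1 and Nfe2l2. Most of the list did not pass. Of 28 tested, 2 rose, 0 fell and 26 did not pass, where 0.938% of all genes rose and 1.52% fell. The median was 0.10. Prdx5, a peroxiredoxin that reduces peroxides, rose from 474 ± 40.9 to 739 ± 73.9 CPM (SD, n = 3 each), with a log2 fold change of 0.64 (edgeR adjusted p = 0.0318). Gpx3, a secreted glutathione peroxidase, rose from 24.5 ± 2.51 to 42.1 ± 7.99 CPM, with 0.78 (edgeR adjusted p = 0.0318). The call of Prdx5 ended when WT replicates 1 and 4 or KO replicate 4 were left out singly (adjusted p = 0.107, 0.120 and 0.134). That of Gpx3 ended when any WT library, or the fourth KO replicate, was omitted (0.0710 to 0.117). At an unadjusted p under 0.05, 7 of the 28 were higher and 3 lower (11.7% and 12.2% of all genes). By DESeq2 5 were higher and 1 lower (6.0% and 5.35% of its genes with an adjusted p), and by limma 4 and 1 (2.07% and 2.57% of all genes).

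**Figure D3:**
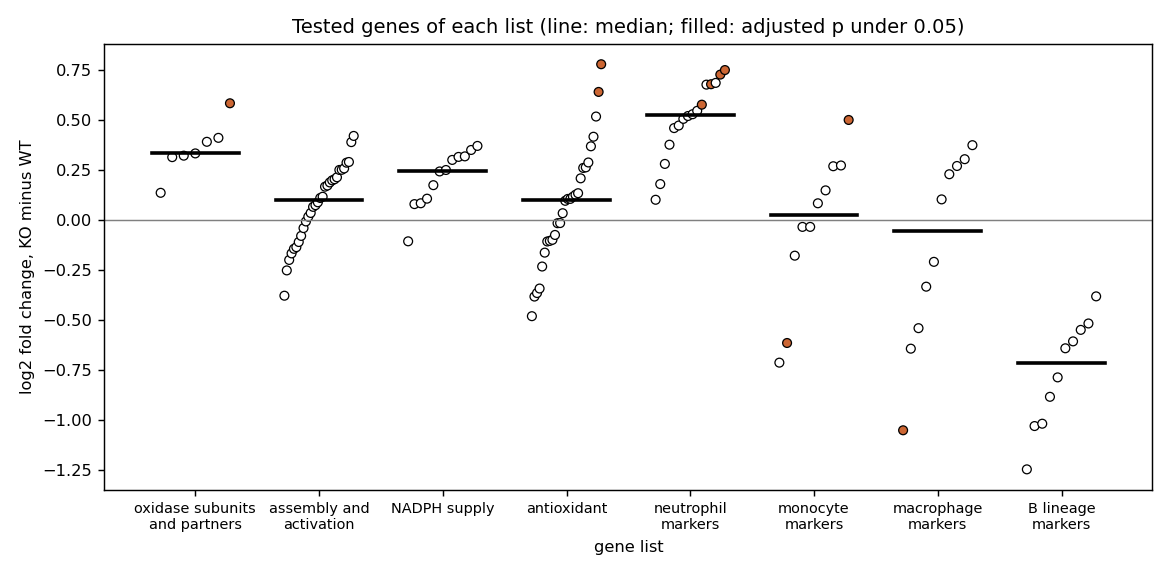
Log2 fold change (KO minus WT, vertical axis) of each tested gene, arranged by gene list along the horizontal axis, with the list median as a line and genes with an adjusted p under 0.05 filled. The oxidase genes have a median of 0.33, between that of NADPH supply genes (0.25) and that of neutrophil markers (0.53), while B lineage markers have -0.71.

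Markers of the cells that carry the oxidase moved as follows. All 16 neutrophil markers had higher point estimates in KO marrow, with a median log2 fold change of 0.53. Of these 4 rose in edgeR (S100a8, Camp, Elane and Cebpe) and 0 fell, against the 0.938% and 1.52% of all genes given above. At an unadjusted p under 0.05, 14 were higher and 0 lower (11.7% and 12.2% of all genes). DESeq2 called 14 higher and 0 lower (6.0% and 5.35% of its genes with an adjusted p), and limma 9 and 0 (2.07% and 2.57% of all genes). In 14 markers each KO library lay above each WT library, and in 0 below (14.4% and 14.7% of all genes). Their summed level reached at most 61991 CPM in WT and was between 72327 and 87525 CPM in KO, without overlap. Monocyte markers summed to between 2080 and 2516 CPM in WT and between 2366 and 2782 CPM in KO, with a median of 0.03, and macrophage markers to between 314 and 344 CPM and between 308 and 387 CPM, with a median of -0.05. Of 10 monocyte markers Ly6c2 rose (log2 fold change 0.50) and Klf4 fell (-0.61), and of 10 macrophage markers 0 rose and Siglec1 fell (-1.05). Eosinophils also carry the oxidase. Of their 8 markers 7 had higher point estimates, with a median of 0.51 and sums between 627 and 1482 CPM in WT and between 1466 and 2060.1 CPM in KO, and 0 were called by edgeR, DESeq2 or limma or had an unadjusted edgeR p under 0.05. All 10 erythroid markers had lower point estimates, with a median of -0.39, and Ermap fell (-0.69), while sums overlapped (14063 to 32890 CPM in WT and 13546 to 24550 CPM in KO). The 7 oxidase members summed to 3780.5, 4875 and 4174 CPM in the WT libraries and 5102, 5261 and 5314 CPM in the KO libraries. The part of these cell types in the oxidase values was not tested, and in bulk marrow more cells of a type and more RNA per cell cannot be told apart.

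The genes whose profile over the 6 libraries was most like that of a member were ranked among 5940 abundant genes (mean log2 CPM of at least 5) by the root mean square difference of centred log2 CPM. For Cyba, whose own profile had a root mean square of 0.31, these were Tmsb4x, an actin-sequestering peptide, Mettl9 and Myl6, a myosin light chain (differences of 0.037, 0.051 and 0.052). For Cybb, with a root mean square of 0.16, they were Arid3a, a DNA-binding protein, Tm6sf1 and Cpne3 (0.019, 0.028 and 0.030). Those of Ncf4 were Arhgdib, Rgs19 and Sephs2, and those of Ncf1 were Padi4, the citrullinating enzyme of neutrophils, Tcn2 and Fmo5. Rac2 was followed by Arhgap9, Hpcal1 and Card19, Rac1 by Calm2, Rer1 and Atp6v1e1, and Hvcn1 by Nck1, Degs1 and Paqr7. No member of the oxidase was among the 3 nearest of another. With 3 genes taken from 5940, this does not tell how alike the members were to each other.

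The promoters were searched for GAGGAA, the letters of the core bound by PU.1, a myeloid transcription factor, on both strands from 250 bases before to 50 after the start. RefSeq promoters (GRCm38.p6) matched 3 members. Cybb held 1 match, beginning at base 10 after the start on the minus strand, and Cyba and Ncf1 held none, compared with 28.3% of 32851 promoters with a match. Promoters of Ncf4, Rac1, Rac2 and Hvcn1 were not analysed here.

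**Figure D4:**
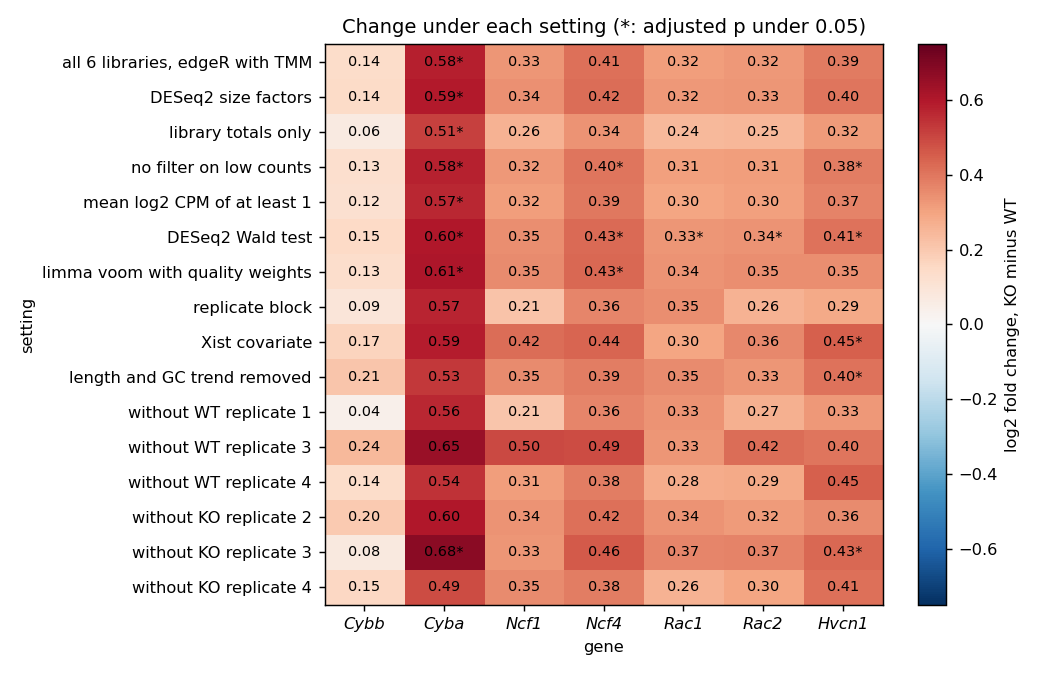
Log2 fold change (KO minus WT, colour and number) of the 7 oxidase genes (columns) in the fit of all libraries and under 15 other settings (rows), with an asterisk where the adjusted p is under 0.05. All values are positive; Cyba ranges from 0.49 to 0.68 and Cybb from 0.04 to 0.24 over the other settings.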

How the data were processed

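The deposited values are raw read counts per gene. The tools named for making them, per the submitters' processing notes, are Trimmomatic 0.36, STAR 2.5.2b and Subread 1.5.2 (featureCounts), on GRCm38; the sources used here state neither strand nor multi-mapping settings. Symbols, exons and 3′ UTRs came from GENCODE M21 (GRCm38), which named 48970 of 49315 identifiers; those without a symbol held 0.0461% of counts. Counts were tested across all genes with edgeR 4.0.16 (R 4.3.3; TMM, filterByExpr, robust quasi-likelihood, two-sided), at a threshold of 0.05 after Benjamini-Hochberg adjustment. DESeq2 1.42.0, limma 3.58.1 and the other settings of the closing section were alternatives, and the fit was tested on simulated counts. The members and lists were chosen with earlier results of these data known. Every member was named, then every gene past the threshold in the other oxidase, activation, supply and antioxidant lists, or else the 3 with the smallest p; marker genes, Nrros, Nox3 and Nox4 were added after their values were seen, as were the alternatives for the named list genes and the other oxidase list, library totals for overlap and the transcript length. A listed gene is not reported here.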

Additional observations from a re-analysis of the deposited data

How the results depend on the processing

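All 7 members kept a positive log2 fold change in each of 15 other settings, while the calls moved. The number of members called higher was 5 in DESeq2, 2 in limma, 3 when low counts were not filtered and 0 with the replicate number as a block (replicate block, Cyba adjusted p = 0.0790), and it ran from 0 to 2 when a library was left out. With the Xist covariate and with the length and GC trend removed it was 1, but that gene was Hvcn1 and not Cyba. No member was called lower in any of the 15. Among activation genes DESeq2 called 4 and limma 1. Among NADPH supply genes 4 were called with DESeq2 and 1 without the filter. Antioxidant calls numbered 7 without the filter, 6 with DESeq2, 5 with limma, 1 with the replicate block, 1 with the Xist covariate and 0 to 3 with a library left out. Calls among the other oxidase genes numbered 0 with DESeq2 size factors, library totals, the replicate block or the Xist covariate, and 0 to 1 with a library left out. Over all genes there were 1492 without the filter, 1577 with DESeq2, 786 with limma, 209 with the Xist covariate and 32 to 920 with a library left out. The Ncf1 to Ncf4 difference ran from -0.15 to 0.0147 (without WT replicate 3), and that of Rac2 to Rac1 from -0.0635 (without WT replicate 1) to 0.0917, also turning to -0.0117 without KO replicate 2. The cause of these moves was not tested. Replicate numbers 3 and 4 are shared by the groups, but same-numbered libraries deviated from their group means with correlations of 0.19 and -0.12, so the numbers were not taken to pair them. Counting error of the members was below the spread between libraries, and the effect of depth on the calls was not tested.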

Other observations

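Nox1, the catalytic subunit of the colon oxidase, was near the limit of the libraries and yet did not overlap between groups, at 0.318, 0.319 and 0.358 CPM in WT and 0.535, 0.503 and 0.507 CPM in KO. Its log2 fold change of 0.63 ± 0.32 (SE) did not pass the threshold (edgeR adjusted p = 0.268). Noxo1, its organiser, had -0.59 ± 0.39 (adjusted p = 0.386).

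Gclc, the catalytic subunit of glutathione synthesis, was the antioxidant gene with the smallest p among those with a lower value in KO marrow, at 151, 116 and 136 CPM in WT and 105, 94.2 and 90.0 CPM in KO (log2 fold change -0.48 ± 0.11, edgeR adjusted p = 0.0562). Nox1, Noxo1 and Gclc were picked after their values were seen.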
